A study of Mus musculus with 4 samples.

Results

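Non-classical monocytes are blood monocytes that crawl along the inside of small vessels and clear debris from them. In mice they depend on the nuclear receptor gene Nr4a1, carry little Ly6C and Ccr2, and are known for Ace, Cx3cr1, Itgal, Cd300e and Treml4. Candidates for them were taken here from CD45-positive, CD11b-positive cells of the mouse ovary.

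A cell was a member when it held at least 3 UMIs (unique molecular identifiers, each standing for 1 counted transcript) of Ace, Ear2 and Gngt2 together. It had to hold at most 3 UMIs of the classical monocyte genes Ly6c2 and Chil3, under 10 of C1qa, C1qb and C1qc, and under 20 of S100a8 and S100a9. It also held at most 1 UMI of Cd209a, at most 1 of Cd3d, Cd3e and Cd3g, and at most 2 of Cd79a, Cd79b and Ms4a1. Members were thus chosen by their own counts of these genes, and the levels of these genes are no finding. The rule found 901 members among 6281 kept cells, and the matrices held 8074 barcodes. Of the members, 579 of 4100 kept cells came from 15-month ovaries and 322 of 2181 from 3-month ovaries.

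The samples were sorted ovarian cells of wild-type virgin C57BL/6J mice at 15 months and at 3 months. For each age 3 hashtag pools (suspensions labelled with a barcoded antibody) were joined, sorted and made into 1 library, so age and library cannot be told apart. The protocol gives harvest ages of 14 to 17 months with 5 animals and of 2 to 3 months with 6 animals, and says that 1 older pool came from 1 mouse without saying which. Pools were the replicates, 3 for each age. The members of a pool held 896520 to 2612575 UMIs at 15 months and 612267 to 820622 UMIs at 3 months. The libraries shared 3 cell barcodes, none of them a member in either.

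Promoter letters are shown for Ace and Ear2 of the rule, for Pou2f2 as a marker gene, and for Cd300e and Treml4, which the rule did not use. Levels of Cd300e and Treml4 rose with the number of markers detected in a member, as described further on. Ace, Ear2 and Pou2f2 are among the markers counted there, so a rise of their own is no finding. Each line holds the 250 bases before a transcript start listed by RefSeq in GRCm38.p6, in the direction of the gene. That start is not always the outer end of the gene. The Pou2f2 and Cd300e genes reach to chr7:25180797 and chr11:115066676, so their windows lie inside them. The Treml4 gene begins at chr17:48264200, so the last part of its window, with its match, lies inside it. Capitals mark matches on either strand to 6 motifs. These were the octamer ATGCAAAT, the Nr4a motif AAAGGTCA, the PU.1 core AGGAAG, the Krüppel-like core CCACCC, the C/EBP palindrome TTGCGCAA and the RUNX motif TGTGGTT, and no match in these windows overlapped another. The windows are chr11:105967698-105967947 (plus strand) for Ace, chr14:44102404-44102653 (plus) for Ear2, chr7:25132461-25132710 (minus) for Pou2f2, chr11:115062040-115062289 (minus) for Cd300e and chr17:48264045-48264294 (plus) for Treml4.
Ace: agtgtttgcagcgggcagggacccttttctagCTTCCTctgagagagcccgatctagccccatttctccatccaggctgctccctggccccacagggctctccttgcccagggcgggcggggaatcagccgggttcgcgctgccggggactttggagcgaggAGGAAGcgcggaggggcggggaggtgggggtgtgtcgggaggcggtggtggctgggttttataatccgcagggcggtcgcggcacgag
Ear2: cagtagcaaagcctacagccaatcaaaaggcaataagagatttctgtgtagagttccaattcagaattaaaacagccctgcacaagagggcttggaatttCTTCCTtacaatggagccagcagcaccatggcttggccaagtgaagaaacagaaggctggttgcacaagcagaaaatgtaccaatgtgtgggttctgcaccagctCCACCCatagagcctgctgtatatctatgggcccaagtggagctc
Pou2f2: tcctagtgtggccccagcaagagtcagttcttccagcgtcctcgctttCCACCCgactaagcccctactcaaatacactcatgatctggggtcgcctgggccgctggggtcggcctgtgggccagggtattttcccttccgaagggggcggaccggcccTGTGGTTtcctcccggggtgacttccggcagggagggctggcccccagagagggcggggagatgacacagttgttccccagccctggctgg
Cd300e: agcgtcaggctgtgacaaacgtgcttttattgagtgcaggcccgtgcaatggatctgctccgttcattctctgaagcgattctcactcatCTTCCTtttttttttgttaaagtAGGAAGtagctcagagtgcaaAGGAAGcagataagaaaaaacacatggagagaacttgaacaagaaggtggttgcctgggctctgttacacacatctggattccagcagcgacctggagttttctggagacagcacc
Treml4: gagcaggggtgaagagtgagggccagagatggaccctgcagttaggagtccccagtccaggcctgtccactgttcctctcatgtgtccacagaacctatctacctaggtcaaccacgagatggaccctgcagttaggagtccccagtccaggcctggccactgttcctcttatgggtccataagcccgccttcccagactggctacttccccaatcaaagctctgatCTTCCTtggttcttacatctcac
The PU.1 core stood in the windows of Ace, Ear2, Cd300e and Treml4, and in 29.5% of the 32851 promoter windows of that length. Cd300e held 3 of these matches and Ace 2. The Krüppel-like core stood in the windows of Ear2 and Pou2f2 and in 28.1% of all windows, and the RUNX motif in that of Pou2f2 and in 4.4% of all. The octamer, the Nr4a motif and the C/EBP palindrome had no match in these windows, where 1.6%, 1.34% and 0.164% of all windows held one. A match describes letters only, and binding was not measured.

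The members were not 1 uniform kind of cell. Gngt2, a G-protein gamma subunit, had a UMI in 97.8% of members and 63.1% of other cells. For Ear2, a ribonuclease, the shares were 62.7% of members and 12.3% of other cells. For Ace, angiotensin-converting enzyme, they were 54.9% of members and 4.44% of other cells. Pou2f2, a POU-domain transcription factor that the rule did not use, had a UMI in 70.5% of members and 44.1% of other cells. The median depth was 5342 UMIs in members and 8118.5 UMIs in other cells. With each cell thinned to 2000 UMIs, which left out 15 members at 15 months and 7 at 3 months, the shares were 84.5% and 36.1% for Gngt2, and 40.05% and 1.69% for Ace. Thinned C1q cells, a class described further on, had a UMI of Ace in 0.285% and of Gngt2 in 24.8%. That class had to hold under 3 UMIs of Ace, Ear2 and Gngt2 together, so its low shares follow from its choice. Apart from those of Pou2f2, these are shares for genes that the rule used. Neither Ace nor Ear2 was detected in 230 members, which passed the rule on Gngt2 alone. Ear2 has near-identical copies, and Ear1, Ear6, Ear10 and Ear14 had no UMI in members, so the assignment of reads within that family is uncertain.

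Counting how many of the 4 markers Ace, Ear2, Gngt2 and Pou2f2 had a UMI set the members along a gradient. There were 162 members with 1 marker, 173 with 2, 196 with 3 and 370 with all 4. Itgal, the integrin alpha chain of LFA-1, stood at 19.01, 54.7, 430.2 and 898 CPM (CPM, UMIs of the gene per 1000000 UMIs, over all cells with 1, 2, 3 and 4 markers summed). Cd300e, an activating receptor of monocytes, stood at 5.76, 22.6, 157 and 318 CPM. Treml4, another receptor of these cells, stood at 13.8, 37.1, 203 and 416 CPM. Nr4a1 stood at 289, 371, 1099 and 1779 CPM. All 20 genes of the non-classical monocyte list, which holds Pou2f2 itself, were higher with 4 markers than with 1. So were 19 of 22 Fc receptor and signalling genes, 18 of 23 adhesion genes and 13 of 16 MHC class I genes. Of the classical monocyte list 8 of 15 were higher, and of the lysosomal list 5 of 20. The rise was thus not particular to the non-classical list, and the share over all genes was not counted. Reading the cells by markers is a description and carries no test.

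Several genes of dendritic and oviduct cells ran the other way. Ccr7, the chemokine receptor of migrating dendritic cells, stood at 605, 333, 81.3 and 12.5 CPM with 1, 2, 3 and 4 markers. Ccl22, a chemokine of mature dendritic cells, stood at 179.8, 117, 27.98 and 1.08 CPM. Ovgp1, the oviduct glycoprotein, stood at 1329.9, 997, 507 and 2.17 CPM, and 4875 of its UMIs came from 9 members of 15-month pool 2. Cd74, the invariant chain of MHC class II, stood at 10761, 9617, 8432 and 2899 CPM, and each of the 9 class II genes was lower with 4 markers than with 1. Lists of other cells varied. The summed theca or luteal markers stood at 36.9, 19.6, 34.97 and 161 CPM with 1, 2, 3 and 4 markers, the B cell markers at 65.7, 114, 138 and 129 CPM and the endothelial markers at 554, 386, 62.95 and 202 CPM. Members with 1 and 2 markers had more UMIs, with medians of 8896 and 8705, against 4018 and 4414 with 3 and 4. The data go against the label of non-classical monocytes for the members with few markers, and all members are called Ace/Ear2/Gngt2 cells here.

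**Figure D1:**
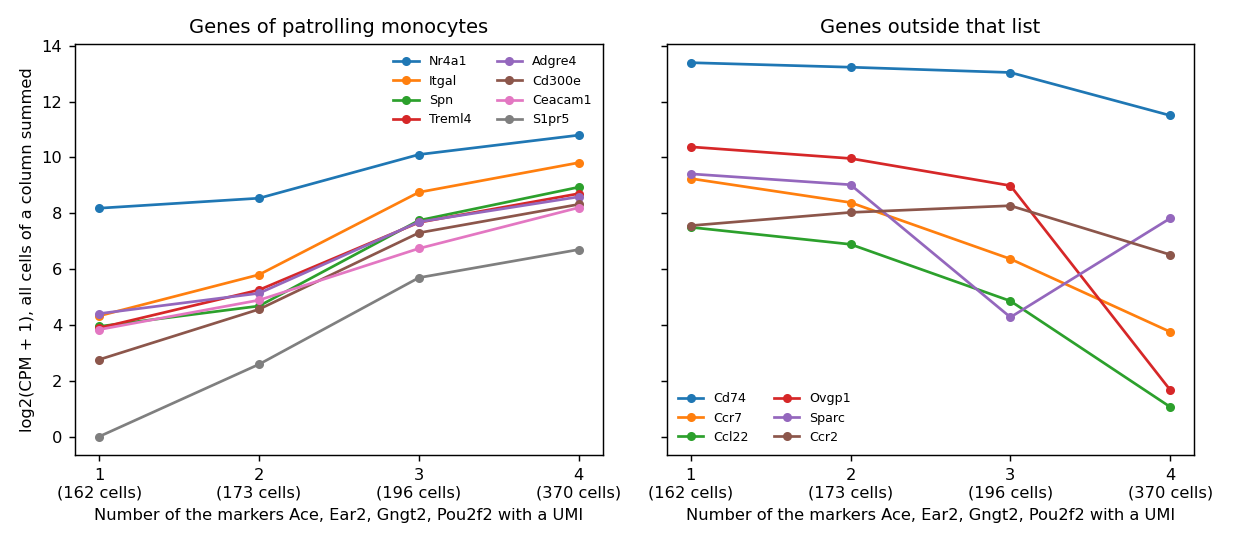
Level of named genes, as log2(CPM + 1) of the summed UMIs, in members with a UMI of 1, 2, 3 or 4 of the markers Ace, Ear2, Gngt2 and Pou2f2. The patrolling genes on the left climb with the number of markers, while Ccr7, Ccl22 and Ovgp1 on the right end low; Sparc falls to 18.4 CPM with 3 markers and stands at 225 CPM with 4.

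Markers of other cells were counted in every member. At least 3 UMIs of 1 of 9 lists of dendritic, lymphoid, mast or non-blood cells were held by 182 members, or 20.2%. Mature dendritic and cDC1 markers marked 75 members each, endothelial markers 46, mast or basophil markers 20, stromal markers 18, theca or luteal markers 15, epithelial and granulosa markers 8 each, and NK markers 2. By pool the share of the 9 lists was 5.33%, 26.9% and 23.3% at 15 months and 17.7%, 27.9% and 19.9% at 3 months. Pool 1 of the 15-month group had the lowest share. Lists outside those 9, some of which hold genes that the rule limited, were counted the same way. The cDC2 markers had at least 3 UMIs in 314 members, the erythroid markers in 228, the classical monocyte markers in 219, the macrophage markers in 199 and the B cell markers in 89. Neutrophil markers did so in 28 members, platelet markers in 27, and T cell and eosinophil markers in 1 each. Members without other-cell markers are in what follows those free of the 9 lists only. Cd3e and Cd3g were at 0 UMIs in members. The hashtag caller HTODemux called 49 members doublets and placed 850 in the same pool.

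The 89 members with a marker sum of 3 had 36.3 CPM of Itgal, 13.8 CPM of Cd300e and 460.0 CPM of Ccr7. The 108 cells just outside, with a sum of 2, had 35.1 CPM of Itgal, 7.01 CPM of Cd300e and 373 CPM of Ccr7. The 506 members with a sum of 10 or more had 607 CPM of Itgal, 210.2 CPM of Cd300e and 113 CPM of Ccr7. For Itgal, Cd300e and Ccr7 the cells just inside were nearer to those just outside than to the members with high sums. Cx3cr1 stood at 128 CPM just inside, 46.5 CPM just outside and 323 CPM with high sums, and Hbb-bs at 10074, 1359 and 142 CPM. At the Ly6c2 and Chil3 limit, the 188 members with 1 to 3 such UMIs had 318 CPM of Itgal and 351 CPM of Ccr2, against 293 and 599.9 CPM in 286 cells outside with 4 or more. At the C1q limit, the 74 members with 3 to 9 such UMIs had 99.1 CPM of Itgal, against 25.2 CPM in 1192 cells outside.

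Levels were set against 2 classes made by mirrored rules. Ly6c2/Chil3 cells (4 or more UMIs of Ly6c2 and Chil3, under 3 of Ace, Ear2 and Gngt2) stood for classical monocytes and numbered 213. Of them 69 held 3 or more UMIs of NK markers, so they were a mixture too. C1q cells (10 or more C1q UMIs, at most 3 of Ly6c2 and Chil3, under 3 of Ace, Ear2 and Gngt2) stood for resident macrophages and numbered 786. Cells with 3 or more UMIs of Ace, Ear2 and Gngt2 were in neither class. These were 286 cells over the Ly6c2 and Chil3 limit and 1192 over the C1q limit. Their median depths were 7659.5 and 12270.5 UMIs, against 6924 in Ly6c2/Chil3 cells and 6996.5 in C1q cells. Values are CPM of summed UMIs in a pool, as mean ± SD over the 6 pools (n = 6), and log2 ratios are medians over pools with 5 CPM added. Expression chose all these cells, so no test was made.

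Of 19 genes on the non-classical monocyte list that reached 50 CPM in either class, 13 had a median at least 2-fold higher than in Ly6c2/Chil3 cells and none was 2-fold lower, where 7.32% of 3115 genes at that level were 2-fold higher. Against C1q cells 13 of 18 were 2-fold higher and none 2-fold lower, where 7.47% of 3066 genes were 2-fold higher and 4.7% lower. Against all other kept cells 12 of 18 were 2-fold higher and 0 lower, where 3.92% and 3.19% of 3014 genes were. A gene was higher than in Ly6c2/Chil3 cells in 6 of 6 pools for 12% of genes and lower for 8.38%, and against C1q cells for 24.8% and 14.3%. Cd300e averaged 123 ± 71.8 CPM in Ace/Ear2/Gngt2 cells, 21.9 ± 32.6 CPM in C1q cells and 0.264 ± 0.645 CPM in Ly6c2/Chil3 cells, where 1 UMI was counted. By pool it had 239, 101 and 97.04 CPM at 15 months, against 164, 26.1 and 108 CPM at 3 months, each value above both comparators in the same pool. Eno3, a glycolytic enolase, averaged 217 ± 72.7 CPM in Ace/Ear2/Gngt2 cells, 5.31 ± 4.65 CPM in C1q cells and 1.996 ± 2.37 CPM in Ly6c2/Chil3 cells. Slc12a2, a sodium, potassium and chloride cotransporter, averaged 80.3 ± 59.4 CPM in Ace/Ear2/Gngt2 cells, 12.3 ± 6.46 CPM in C1q cells and 0.264 ± 0.645 CPM in Ly6c2/Chil3 cells. Ceacam1, an adhesion receptor, had log2 ratios of 2.88 to Ly6c2/Chil3 cells and 3.47 to C1q cells.

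Adhesion and homing genes differed between the classes in several ways. Itgal averaged 339 ± 155 CPM in Ace/Ear2/Gngt2 cells, 22.04 ± 6.60 CPM in C1q cells and 146 ± 49.9 CPM in Ly6c2/Chil3 cells, and was higher than in both in 6 of 6 pools. With cells holding other-cell markers left out of both classes, its log2 ratio to Ly6c2/Chil3 cells was 2.77 in place of 1.22. S1pr5, a sphingosine phosphate receptor, averaged 35.1 ± 19.2 CPM in Ace/Ear2/Gngt2 cells and 0.315 ± 0.575 CPM in C1q cells. Ccr2, the receptor that brings classical monocytes out of the marrow, averaged 211 ± 72.6 CPM, against 687 ± 248 CPM in Ly6c2/Chil3 cells. Cx3cr1, the fractalkine receptor, averaged 238 ± 61.2 CPM, against 419 ± 75.9 CPM in C1q cells, and was lower in 6 of 6 pools. Its place beside Ly6c2/Chil3 cells varied, in CPM scaled for the interaction test described further on. Members had 337, 207 and 234 at 15 months, against 169, 223 and 365 in Ly6c2/Chil3 cells. At 3 months they had 199, 193 and 299, against 86.2, 70.7 and 223.

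Of 15 genes on the classical monocyte list, 11 were at least 2-fold lower than in Ly6c2/Chil3 cells and none 2-fold higher, where 4.82% of all genes were 2-fold lower. Lyz2, lysozyme, averaged 7747 ± 2098 CPM, against 18805 ± 5285 CPM in Ly6c2/Chil3 cells. F13a1, a coagulation factor subunit, averaged 46.1 ± 13.1 CPM, against 339 ± 134 CPM. Plac8 lay between the classes, at 1031 ± 192 CPM in Ace/Ear2/Gngt2 cells, 2063 ± 464 CPM in Ly6c2/Chil3 cells and 86.1 ± 42.7 CPM in C1q cells. Ifitm6, an interferon-induced membrane protein, took a like place with 240.0 ± 114 CPM in Ace/Ear2/Gngt2 cells, 361 ± 172 CPM in Ly6c2/Chil3 cells and 14.5 ± 11.5 CPM in C1q cells.

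Among Fc receptors, Fcgr4, a marker of non-classical monocytes, averaged 219.6 ± 89.97 CPM, against 51.5 ± 49.7 CPM in Ly6c2/Chil3 cells and 276 ± 214 CPM in C1q cells. Fcgr1, Fcgr2b and Fcgr3 were lower than in both other classes in 6 of 6 pools, with Fcgr1 at 82.2 ± 31.9 CPM, against 275 ± 75.97 CPM in Ly6c2/Chil3 cells and 197 ± 38.5 CPM in C1q cells. Bcl2a1d, a survival gene of the Bcl2 family with near-identical copies, averaged 250.2 ± 55.8 CPM, against 39.8 ± 20.1 CPM in Ly6c2/Chil3 cells and 77.9 ± 23.98 CPM in C1q cells. Nr4a1 averaged 837 ± 258 CPM, against 503 ± 238 CPM in Ly6c2/Chil3 cells and 336 ± 105 CPM in C1q cells, and was higher in 6 of 6 pools. Fabp4, a fatty acid carrier, averaged 392 ± 111 CPM, against 39.1 ± 78.8 CPM in Ly6c2/Chil3 cells and 73.6 ± 59.02 CPM in C1q cells. Ccl4, a chemokine that NK cells also make, averaged 409 ± 203 CPM, against 1765 ± 1042 CPM in Ly6c2/Chil3 cells. Its log2 ratio was -2.38, and turned to 1.09 with cells holding other-cell markers left out of both classes.

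The 15 largest ratios to Ly6c2/Chil3 cells also showed the mixture. Igfbp7, Sparc, Mgp, Col4a1, Dcn and Rgs5, known from vessels and stroma, and Ccr7, Ccl22 and Tbc1d4 averaged at most 17.9 CPM in the members without other-cell markers. Igfbp7, for one, averaged 776 ± 421 CPM over all members and 4.96 CPM in those without. Ccr7, Ccl22 and Dcn are themselves on the lists used to leave cells out. Their low levels in the members without other-cell markers are therefore no finding. Cd81, a tetraspanin, averaged 183 CPM over all members and 68.5 CPM in those without. Fabp4, Eno3, Cd300e and Treml4 averaged 559, 271, 180.3 and 237 CPM in members without those markers, against 392, 217, 123 and 158 CPM over all members. Gdf15, a stress-induced cytokine, averaged 189.8 CPM in members without those markers and 138 ± 55.5 CPM over all, against 296 ± 86.5 CPM in C1q cells, and stood at 229, 169, 65.6 and 48.2 CPM with 1, 2, 3 and 4 of the markers Ace, Ear2, Gngt2 and Pou2f2. The 10 smallest ratios belonged to Gzma, Nkg7, Gzmb, Prf1, Klra9, Ncr1, Il2rb, Klra4, Klre1 and Ms4a4b, genes of cytotoxic lymphocytes, from 160.4 CPM for Klra4 to 3778 CPM for Gzma in Ly6c2/Chil3 cells, and at most 6.97 CPM in Ace/Ear2/Gngt2 cells.

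**Figure D2:**
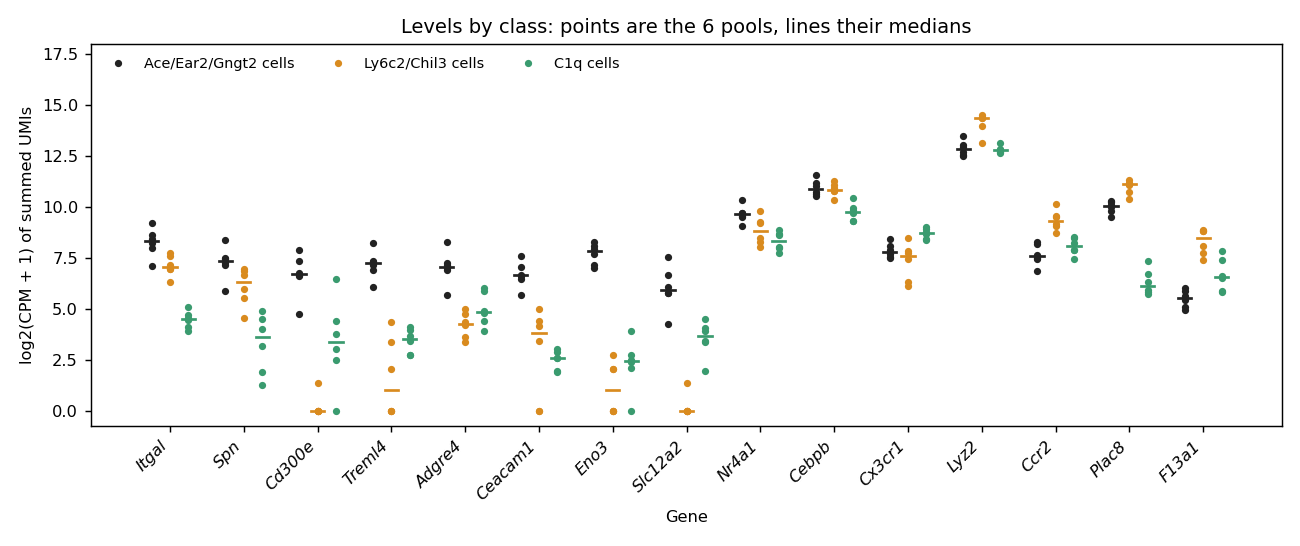
Level of 15 genes, as log2(CPM + 1) of summed UMIs, in Ace/Ear2/Gngt2 cells, Ly6c2/Chil3 cells and C1q cells; each point is 1 of 6 pools and each line a median. Cd300e, Treml4, Eno3 and Slc12a2 were higher in Ace/Ear2/Gngt2 cells than in both other classes in 6 of 6 pools, and Lyz2, Ccr2, Plac8 and F13a1 were lower than in Ly6c2/Chil3 cells in 6 of 6.

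The share of Ace/Ear2/Gngt2 cells among kept cells did not separate the ages. It was 22.03%, 11.9% and 13.4% in the 15-month pools, with 95% Wilson intervals of 19.2% to 25.1%, 10.7% to 13.2% and 11.3% to 15.8%. It was 15.6%, 14.2% and 14.4% in the 3-month pools, with intervals of 13.1% to 18.4%, 11.4% to 17.6% and 12.4% to 16.8%. The means were 15.8% ± 5.47 at 15 months and 14.7% ± 0.744 at 3 months (SD, n = 3 each), a difference of 1.04 percentage points (two-sided exact permutation test, p = 1, where 3 against 3 pools cannot go below 0.1). Pool 1 of the 15-month group stood highest of all 6 pools and the other 15-month pools lowest. Without it the difference was -2.09 points (exact permutation p = 0.1, the smallest that 2 against 3 pools allow).

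Among the members and Ly6c2/Chil3 cells together, the share of members was 89.4%, 76.7% and 85.7% in the 15-month pools and 70.6%, 74.7% and 90.4% in the 3-month pools. The means were 83.95% ± 6.53 at 15 months and 78.6% ± 10.4 at 3 months (SD, n = 3 each, exact permutation p = 0.5). The Ly6c2/Chil3 cells numbered 20, 88 and 20 at 15 months and 47, 23 and 15 at 3 months. The 286 cells over the Ly6c2 and Chil3 limit with 3 or more UMIs of Ace, Ear2 and Gngt2 were in neither count. The make-up of the members varied between pools as well. Members with 3 or 4 markers were 80.5%, 58.97% and 60.00% at 15 months and 67.3%, 42.6% and 58.2% at 3 months, and the ages overlapped. The intervals cover counting error only.

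**Figure D3:**
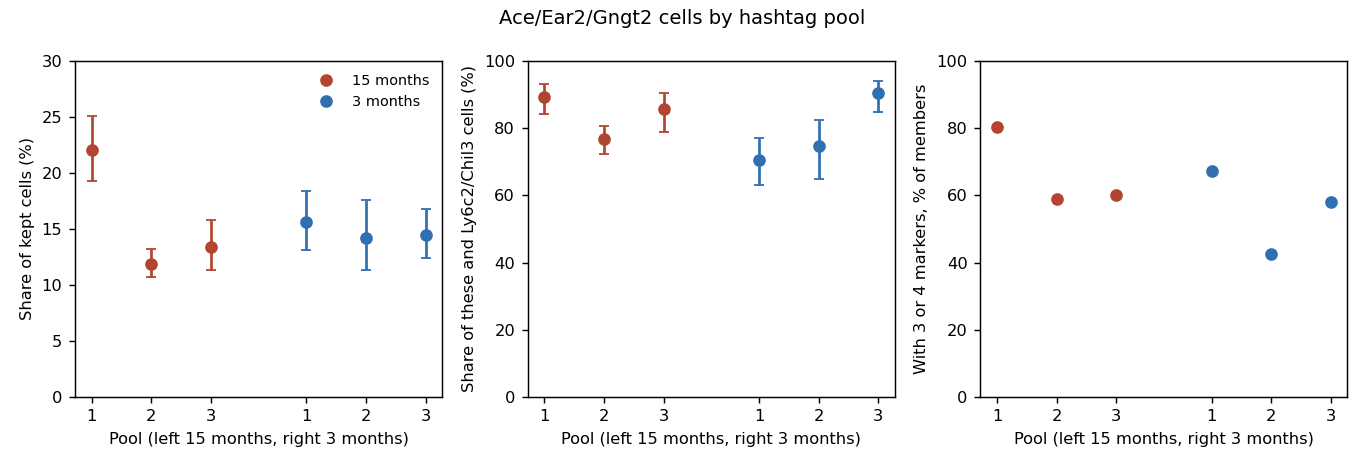
Percent of Ace/Ear2/Gngt2 cells among kept cells (left) and among Ace/Ear2/Gngt2 and Ly6c2/Chil3 cells together (middle), with 95% Wilson intervals, and percent of members with 3 or 4 markers (right), for the 3 pools of 15 months (red) and of 3 months (blue). The 15-month pool 1 is highest at 22.03% of kept cells and 80.5% with 3 or 4 markers, and the ages overlap in all 3 panels.

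Few genes were called by age, and none of those was on the non-classical monocyte list. With 3 pools for each age, a gene that was not called was not shown to be alike at both ages. In edgeR's quasi-likelihood test on UMIs summed by pool, 7060 genes were tested, and 3 were higher and 5 lower at 15 months at a Benjamini-Hochberg adjusted p under 0.05, which is 0.0425% and 0.0708% of genes, and 0.113% in both directions. An unadjusted p under 0.05 was reached by 678 genes. The higher genes were Gm42418, AY036118 and the keratin gene Krt19. The lower genes were the haemoglobin genes Hbb-bs, Hbb-bt, Hba-a1 and Hba-a2, and Retnla, a resistin-like protein secreted by alternatively activated macrophages. Gm42418 is a predicted gene model, named after its values were seen.

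Gm42418 and AY036118 are known to collect reads of ribosomal RNA. Gm42418 had 11353, 9653 and 13045 CPM at 15 months, against 2684, 2889 and 3433 CPM at 3 months, with no overlap (log2 fold change 1.79 ± 0.15 SE, adjusted p = 0.00326, edgeR). The other kept cells held 9489.7 ± 1867 CPM at 15 months and 2885 ± 430.4 CPM at 3 months (SD, n = 3 each), so a gap of like size stood outside the members. AY036118 had 324, 251 and 444 CPM at 15 months, against 74.99, 86.6 and 71.9 CPM at 3 months, also with no overlap (log2 fold change 1.99 ± 0.23 SE, adjusted p = 0.0197, edgeR). Its call was lost without 15-month pool 1 and without any 1 of the 3-month pools, with adjusted p of 0.0537 to 0.206 by edgeR.

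The 4 haemoglobin genes together had 29.3, 32.9 and 22.3 CPM in the members of the 15-month pools, against 15931, 2732 and 10458 CPM at 3 months. No member of the 15-month pools and 1, 1 and 2 members of the 3-month pools held more than 1% haemoglobin UMIs. In 3-month pool 1 the 3 cells with the most Hbb-bs held 96.4% of its UMIs, although 101 of 113 members had at least 1. The other kept cells held 101 ± 125 CPM at 15 months and 9341 ± 8244 CPM at 3 months, so the summed level was lower at 15 months in both sets of cells, and its part in other results was not tested. In members the log2 fold changes were -8.51 ± 0.71 SE for Hbb-bs and -7.69 ± 0.56 SE for Hbb-bt (adjusted p = 0.00326 for both, edgeR). They were -8.35 ± 0.93 SE for Hba-a1 and -9.42 ± 0.97 SE for Hba-a2 (adjusted p of 0.0172 and 0.0118, edgeR). The 2 Hba genes are near-identical copies whose reads cannot be split with certainty, and both lost their call without any 1 of the 15-month pools and without 3-month pool 3, with adjusted p of 0.0537 to 0.131 by edgeR.

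Retnla had 1.01, 0.766 and 0 CPM at 15 months, against 685, 485 and 185 CPM at 3 months. These were 3 UMIs in all at 15 months and 988 at 3 months, a ratio of 3 months over 15 months of 667 (95% exact interval 228 to 3242, counting error only). The adjusted p was 0.00326 (edgeR), and the UMIs came from 1, 2 and 0 members of the 15-month pools and 6, 4 and 1 members of the 3-month pools. In the members with 3 or 4 markers Retnla had 1.54, 0 and 0 CPM at 15 months, against 36.1, 0 and 0 CPM at 3 months, and it was not tested there. The other kept cells overlapped between the ages, at 251 ± 111 CPM at 15 months and 222 ± 187 CPM at 3 months. In members chosen on counts thinned to 2000 UMIs, with their full counts summed, the log2 fold change was -1.11 and was not called (adjusted p = 0.651, edgeR).

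Krt19, an epithelial keratin, had 29.3, 28.3 and 25.7 CPM at 15 months and no UMI in any 3-month pool. It was at least 20.7-fold higher at 15 months, with 3 counts over the 3-month group as the floor (adjusted p = 0.0219, edgeR). Its 126 UMIs came from 1, 6 and 1 members, and the call was lost without any 1 of the 6 pools (adjusted p of 0.0613 to 0.198, edgeR). The epithelial marker list summed to 100.1, 508 and 139 CPM at 15 months, against 1.27, 1.63 and 1.22 CPM at 3 months in members. Krt19 alone stood at 21.6 ± 9.31 CPM at 15 months and 5.33 ± 1.86 CPM at 3 months in the other kept cells. Sums over cells alone do not tell more cells with a transcript from more transcript in each cell. For Krt19 the cells were counted, and 0 of the 113, 68 and 141 members of the 3-month pools held a UMI.

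The 566 members with 3 or 4 markers, a subset chosen after the data had been seen, gave 6 higher and 5 lower genes of 4511 tested (edgeR, adjusted p under 0.05). Besides Gm42418, AY036118 and the haemoglobin genes these were Nedd4, a ubiquitin ligase, Lars2, a mitochondrial leucyl-tRNA synthetase, AW112010, Sparc, a matrix protein, and Fos, an immediate-early transcription factor. Fos was lower, with 1192, 1091 and 1131 CPM at 15 months, against 1716, 1867 and 1772 CPM at 3 months and no overlap (log2 fold change -0.72 ± 0.12 SE, adjusted p = 0.0178, edgeR). Over all members Fos had a log2 fold change of -0.40 ± 0.14 SE (adjusted p = 0.431, edgeR). In the other kept cells Fos averaged 2223 ± 191 CPM at 15 months and 2758 ± 229 CPM at 3 months. Lars2 was higher, with 267, 186 and 229.8 CPM at 15 months, against 52.96, 20.2 and 76.2 CPM at 3 months (adjusted p = 0.00765, edgeR). The other kept cells held 145 ± 26.4 CPM at 15 months and 55.3 ± 2.49 CPM at 3 months of Lars2. Sparc was higher, with 128, 325 and 30.2 CPM at 15 months, against 2.41, 0 and 0 CPM at 3 months (adjusted p = 0.0347, edgeR). Over all members the ages overlapped for Sparc. Its UMIs there came from 5, 23 and 10 members at 15 months and 4, 3 and 9 at 3 months. In members without other-cell markers Sparc averaged 1.98 CPM.

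The genes of the rule are given as a description. Ace had 403, 179 and 164 CPM at 15 months, against 215, 113 and 233 CPM at 3 months (log2 fold change 0.27 ± 0.40 SE), and the ages overlapped. For Ear2 the log2 fold change was -0.19 ± 0.36 SE, for Gngt2 -0.11 ± 0.30 SE and for Pou2f2 0.20 ± 0.40 SE. Of the 20 genes on the non-classical monocyte list none was called, 16 were positive, and the median log2 fold change was 0.29, beside 0.019 over all genes tested. Pools of 1 age spread widely, as with Itgal, which had 599, 305 and 249.9 CPM at 15 months, against 391, 139 and 347 CPM at 3 months. In the subset with 3 or 4 markers the list's median was 0.16. Slc12a2 had 189, 99.5 and 66.9 CPM at 15 months, against 53.4, 17.97 and 54.8 CPM at 3 months, with no overlap (log2 fold change 1.33 ± 0.48 SE, adjusted p = 0.454, edgeR). Fcgr4 had 319, 238 and 308 CPM at 15 months, against 168, 80.03 and 205 CPM at 3 months, also with no overlap (log2 fold change 0.78 ± 0.32 SE, adjusted p = 0.506, edgeR). These were 2 of the 20 genes without overlap on the higher side, where 8.37% of all genes had none.

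**Figure D4:**
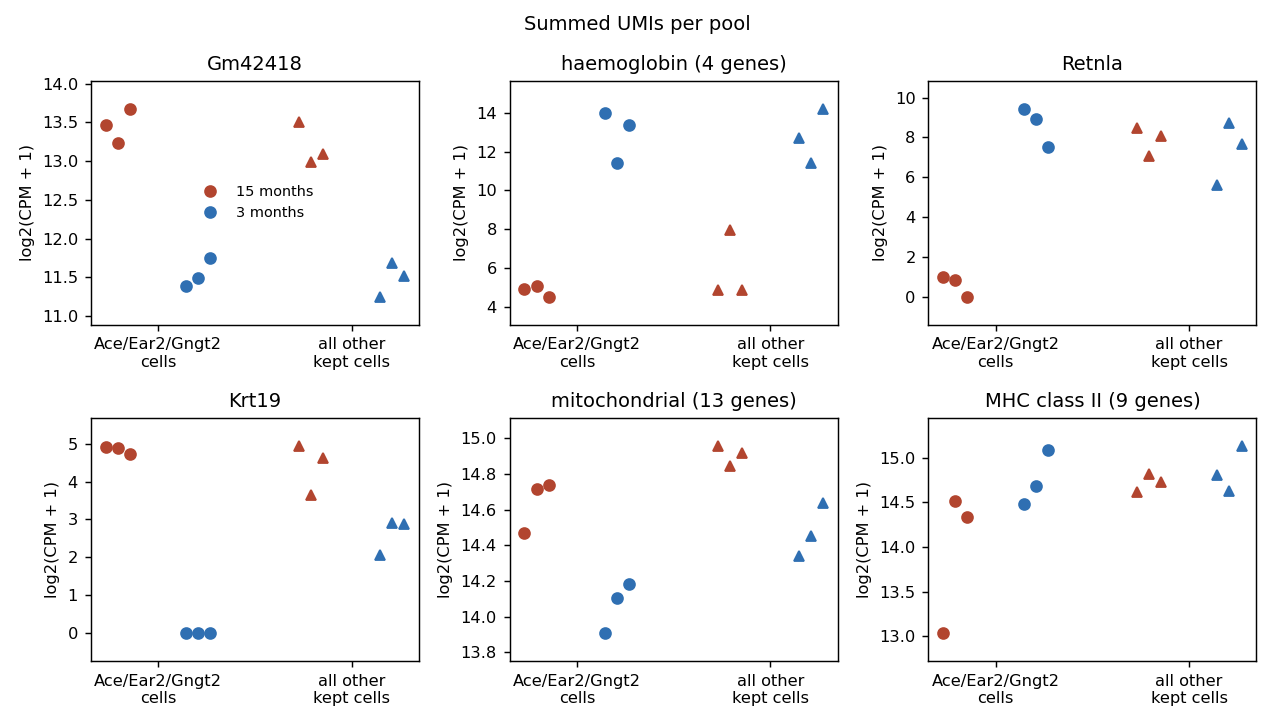
Level per pool, as log2(CPM + 1) of summed UMIs, of Gm42418, 4 haemoglobin genes, Retnla, Krt19, 13 mitochondrial genes and 9 MHC class II genes, in Ace/Ear2/Gngt2 cells (circles) and all other kept cells (triangles) at 15 months (red) and 3 months (blue). The vertical axes do not start at 0; Gm42418 and haemoglobin separate the ages in both sets of cells, whereas the other kept cells overlap for Retnla.

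The MHC class II list held H2-Aa, H2-Ab1, H2-Eb1, H2-DMa, H2-DMb1, H2-DMb2, Cd74, Ciita and Ctss, genes of the pathway that presents peptides to helper T cells. Ctss was also on the lysosomal list. All 9 had negative log2 fold changes, with a median of -0.68 and none called. Cd74 had 2354, 7972 and 7089 CPM at 15 months, against 8959.7, 9762 and 12549 CPM at 3 months (log2 fold change -0.98 ± 0.39 SE, adjusted p = 0.498, edgeR). Its ages did not overlap, as for 9.01% of genes on the lower side, and 15-month pool 1 lay far below the rest. That pool also had the highest share of members with 3 or 4 markers. The 9 class II genes summed to 31249, 27890, 23324 and 7549 CPM with 1, 2, 3 and 4 markers. The part of this marker make-up in the result was not tested. Within the members with 3 or 4 markers Cd74 had 1493, 5990.3 and 3779.7 CPM at 15 months, against 7000.5, 8798 and 5270.4 CPM at 3 months, and the ages overlapped, with a log2 fold change of -0.96 ± 0.36 SE (adjusted p = 0.300, edgeR). All 8 class II genes tested in that subset were negative, with a median of -0.87 and none called. The 9 genes together held 26999.5 ± 1929 CPM at 15 months and 29934 ± 5416 CPM at 3 months in the other kept cells.

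The 13 mitochondrially encoded genes all had positive log2 fold changes, with a median of 0.45 and none called. Of them 10 had no overlap between the ages on the higher side, where 8.37% of all genes had none. The subunit gene mt-Nd3 had a log2 fold change of 0.77 ± 0.14 SE (adjusted p = 0.195, edgeR) and mt-Co3 of 0.59 ± 0.12 SE (adjusted p = 0.263, edgeR). Together the 13 genes held 25632 ± 2582 CPM at 15 months and 17178 ± 1649 CPM at 3 months in members, and 30718 ± 1218 CPM at 15 months and 22881 ± 2378 CPM at 3 months in the other kept cells (SD, n = 3 each). In both sets of cells every 15-month pool stood above every 3-month pool.

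Of 19 survival and transcription factor genes 10 were positive and 9 negative, and of 12 senescence genes 4 and 8, with none called. Cdkn1a, the cell cycle inhibitor p21, had 247, 289 and 350.2 CPM at 15 months, against 456, 665 and 559 CPM at 3 months, with no overlap (log2 fold change -1.05 ± 0.18 SE, adjusted p = 0.195, edgeR). Hspa8, a heat shock protein, had a log2 fold change of -0.79 ± 0.14 SE (adjusted p = 0.195, edgeR). For Bcl2a1d it was -0.70 ± 0.15 SE and for Bcl2a1b -0.73 ± 0.19 SE, with adjusted p of 0.295 and 0.383 by edgeR. Of 22 immediate-early genes 17 were negative, with a median of -0.25. Osm, the cytokine oncostatin M, had a log2 fold change of -1.19 ± 0.29 SE (adjusted p = 0.381, edgeR).

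Of 17 inflammatory genes tested, 13 were negative and none was called, where 3379 of all 7060 genes were negative. In the members with 3 or 4 markers 8 of 15 were negative, with a median of -0.080 and none called. Ccl2, the ligand of Ccr2, had 59.6, 122 and 25.7 CPM at 15 months, against 925, 568 and 68.2 CPM at 3 months, from 15, 43 and 12 members of the 15-month pools and 35, 20 and 17 of the 3-month pools. Its log2 fold change was -2.98 ± 0.85 SE (adjusted p = 0.416, edgeR), and 3-month pool 3 lay within the range of the 15-month pools. Ccl7, another Ccr2 ligand, had 11, 70 and 4 UMIs at 15 months, against 531, 107 and 4 UMIs at 3 months. With 1, 2, 3 and 4 markers Ccl2 stood at 402, 266, 175 and 55.8 CPM and Ccl7 at 263, 100, 24.5 and 23.3 CPM. Irf7, a regulator of interferon genes, had a log2 fold change of -0.996 ± 0.32 SE (adjusted p = 0.431, edgeR). Ccr2 had a log2 fold change of -0.78 ± 0.26 SE (adjusted p = 0.431, edgeR). Gpnmb, a gene of lipid-laden macrophages, had 526, 134 and 125 CPM at 15 months, against 35.6, 147 and 53.6 CPM at 3 months, so that 15-month pool 1 stood above all others and the ages overlapped. In the members with 3 or 4 markers it had 6.17, 2.84 and 0 CPM at 15 months, against 4.81, 5.04 and 0 CPM at 3 months, and 748, 387, 7 and 3 of its UMIs lay in members with 1, 2, 3 and 4 markers.

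**Figure D5:**
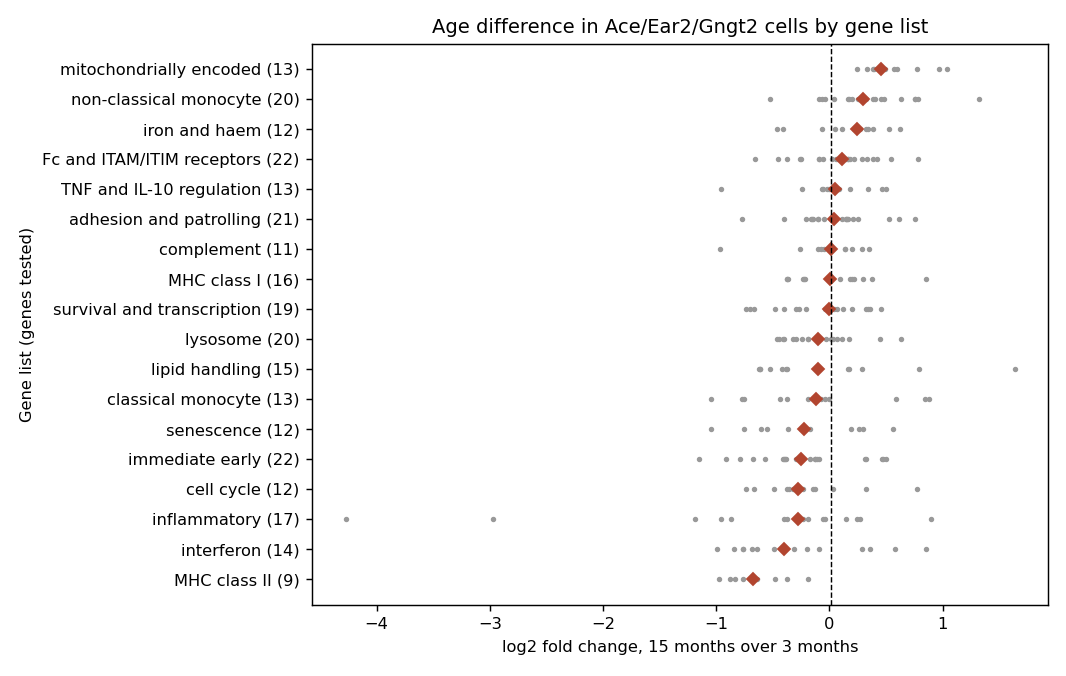
Log2 fold change, 15 months over 3 months, of every tested gene (grey) in 18 gene lists, with the list's median (red diamond); the dashed line is the median of all 7060 genes, 0.019. The 13 mitochondrial genes lie to its right and the 9 MHC class II genes to its left.

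Whether age differed in its effect between Ace/Ear2/Gngt2 cells and Ly6c2/Chil3 cells was tested as an interaction in edgeR with the pool as a block. Of 6904 genes 1 was called, or 0.0145%, and 371 had an unadjusted p under 0.05. It was Xcl1, a chemokine of NK and T cells (difference of log2 fold changes -7.26 ± 0.98 SE, adjusted p = 0.0166, edgeR). In Ace/Ear2/Gngt2 cells it had 0, 0 and 0 UMIs at 15 months and 1, 1 and 13 UMIs at 3 months, each from 1 cell. That is at least 10.1-fold lower at 15 months with 3 counts over the 15-month group as the floor, and the fitted difference depends on the prior count. In Ly6c2/Chil3 cells it had 51, 110 and 56 UMIs at 15 months, from 7, 17 and 3 cells, and 9, 1 and 11 UMIs at 3 months, from 5, 1 and 4 cells. The call was lost without 15-month pool 2 or 3-month pool 3 (adjusted p of 0.101 and 0.222, edgeR). Without cells holding other-cell markers Xcl1 was not tested, and 4 of 5299 genes were called, Tgm2 and Fabp4 in the positive direction and Klrd1 and the rule gene Chil3 in the negative. In Ly6c2/Chil3 cells alone 1 of 2383 genes was called by age, and it was Gm42418.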

How the data were processed

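Sorted CD45-positive, CD11b-positive ovarian cells were profiled with 10x 3' libraries. The authors deposited filtered matrices of raw UMI counts per gene and barcode, with hashtag counts. Alignment was to mm10, per the submitters' processing notes. Those notes name version 7.0.0 of Cell Ranger, while the file headers name 4.0.0; FastQC was 0.11.4. The matrices held 45060166 gene UMIs at 15 months and 27277073 at 3 months over 31053 genes, so precision per gene rests on the members' UMIs in a pool.

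A barcode was kept with 500 or more genes, 1000 or more UMIs, a mitochondrial share of up to 10%, and a top hashtag of 10 or more counts that was 3 times the second. Members' counts were summed by pool. Age was tested with edgeR 4.0.16 (R 4.3.3) with TMM scaling, and shares with exact permutation tests over pools. Per-pool CPM in the text are unscaled. Scripts were tested on simulated data. Doublets were handled by hashtags only. Alternatives included DESeq2 1.42.0 and HTODemux (Seurat 5.3.0).

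The members and gene lists were chosen with earlier results of these data known. Named were the rule and marker genes, up to 10 genes past the age test in each direction with at least 50 CPM, the 3 genes of every list with the smallest p, and the 15 largest and 10 smallest ratios to Ly6c2/Chil3 cells. Other genes named were chosen after their values were seen. A few genes within these choices are not reported here. Pools were separate mice but shared 1 sort and library, so p-values do not cover the spread between libraries.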

Additional observations from a re-analysis of the deposited data

Results flagged for a closer look

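Xcl1, a chemokine of NK and T cells, had a different age effect in Ace/Ear2/Gngt2 cells than in Ly6c2/Chil3 cells in the edgeR interaction test, with a difference of -7.26 on the log2 scale and an adjusted p of 0.0166. In Ly6c2/Chil3 cells it had 498, 174 and 359 CPM at 15 months, against 28.3, 5.67 and 170.1 CPM at 3 months, and the ages did not overlap. NK genes were high in the same class, with Gzma at 5407, 4057 and 2553 CPM at 15 months, against 2194, 1282 and 7177 CPM at 3 months, and their part in the Xcl1 result was not tested.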

How the results depend on the processing

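With main settings 8 genes were called by age. For the setting of thinned cells, classes were chosen on counts thinned to 2000 UMIs, and the full counts of those cells were summed for the gene tests. The count was 8 with HTODemux singlets, with relative log expression size factors and with a mean of at least 50 CPM, 11 with thinned cells, 6 without cells holding other-cell markers and 11 with 3 of 4 markers. It was 3 with the stricter cell filter, 1 with a marker sum of at least 5, 3 with a C1q sum under 3, 1 without the highest scrublet scores, 18 with no filter on low counts, 4 with equal members per pool and 28 with DESeq2, which gave no adjusted p for 5203 genes. Leaving out 1 pool gave 5 to 6 genes. Against the 1 gene of the interaction, 0 was called with a marker sum of at least 5, with 3 of 4 markers, without the highest scrublet scores and with at least 50 CPM, 3 with thinned cells, 4 without other-cell markers, 39 with no filter, and 0 to 10 without 1 pool. At 0 calls, 178 to 345 genes had an unadjusted p under 0.05. The difference in the share of kept cells ran from -2.09 to 2.98 points without 1 pool, with -2.09 without 15-month pool 1. The difference in the share of members among members and Ly6c2/Chil3 cells ran from 1.40 to 11.3 points without 1 pool and was -2.57 with thinned cells. Leaving out cells that scrublet calls was not run, since it called 4 kept cells and had not worked. Other-cell markers, 3 of 4 markers and the scrublet scores were chosen after seeing the data.

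Log2 fold changes that turned sign, none of them called, were for thinned cells Gngt2 0.068, Ly6c2 0.014, Chil3 1.42, C1qb -0.11, Thbs1 0.22, Psmb8 0.020, Tnf 0.29 and C5ar1 0.10, with the Xcl1 difference at 1.43. Without other-cell markers they were Ear2 0.12, C1qc -0.13, Psmb8 0.065 and Tnf 0.63. With 3 of 4 markers they were Chil3 0.27 and Tnf 0.52, with HTODemux C1qc -0.073, and with equal members C3 -0.26. Leaving out 1 pool gave ranges of -0.28 to 0.49 for Ace, -0.76 to 0.030 for Ear2, -0.46 to 0.078 for Gngt2, -0.17 to 0.51 for Pou2f2, -0.42 to 0.0073 for Chil3 and -0.35 to 0.23 for C1qc. The cause was not tested.

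Same-numbered pools did not pair: their deviations correlated at 0.263, -0.102 and 0.124 for pools 1, 2 and 3. With the replicate block 8 genes were called by age, 7 of them shared. The share differences under the block were 1.04 (exact permutation p = 1) and 5.37 points (exact permutation p = 0.75), where 0.25 is the smallest p.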
